A study of Mus musculus with 16 samples.

Results

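The Myc network is a small set of transcription factors that share the dimerization partner Max, and 10 of its genes were looked up by symbol among the 25745 genes of the count table: Myc, Mycn, Mycl, Max, Mxd1, Mxd3, Mxd4, Mxi1, Mnt and Mga. All 10 had a row. Of these, 8 passed the filter on low counts and were tested among 14445 genes, while Mycn and Mycl did not pass it. The cells were 6DT1, a mouse mammary cancer line on the FVB/N1 background, derived, as background knowledge, from a tumour of a mouse carrying a Myc transgene under the mouse mammary tumour virus promoter. A single line of 1 genetic background was used in all groups. The table gives 1 value for Myc, so reads of the transgene and of the resident gene cannot be told apart.

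RNA was sequenced from 16 libraries in 4 groups of 4. Cells carried a lentivirus for CLIC4, a chloride intracellular channel family protein with oxidoreductase activity (libraries 1 to 8), or the empty vector (libraries 9 to 16), and each kind was left untreated (1 to 4 and 9 to 12) or exposed to 1 µM hydrogen peroxide (H2O2) for 24 h (5 to 8 and 13 to 16). The labels differ on genotype: the design text speaks only of vectors, while the sample descriptions call every empty vector library a CLIC4 knockout and every CLIC4 lentivirus library wildtype. Levels are given in CPM, a count relative to library size, with library sizes scaled by the TMM method unless stated otherwise. Clic4 itself stood at 228.6 ± 10.4 CPM (SD, n = 4) in untreated and 242.6 ± 12.9 (n = 4) in treated lentivirus cells. It stood at 42.4 ± 2.35 (n = 4) in treated empty vector cells, and at 66.3 ± 47.8 (n = 4) in untreated ones, or 42.5 ± 1.93 (n = 3) without library 11. The labels do not tell whether replicate libraries stem from different cultures, and the p-values therefore describe spread between libraries, which may be technical.

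Library 11 (empty vector, untreated) differed from the rest of its group before any comparison was made. Its log2 CPM correlated with those of libraries 9, 10 and 12 at 0.9220 to 0.9222 across genes, against at least 0.9936 for all other pairs within groups. Its TMM factor was 0.721 against 0.986 to 1.04 elsewhere, and structural RNA genes took 0.0917% of its counts against at most 0.00127% elsewhere. Libraries held 47.1 M to 61.9 M counts. Of the luminal markers Krt8, Krt18, Krt19, Epcam and Cdh1, the 3 keratins were detected (Krt8 averaged 415.9 to 594.8 CPM across the groups), whereas Epcam and Cdh1, the defining epithelial adhesion genes, averaged at most 0.0487 CPM outside library 11. Tests that use untreated empty vector cells are given with and without library 11.

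Members of the network bind DNA as dimers through a basic helix-loop-helix leucine zipper. Myc with Max binds E-boxes, of which CACGTG is the canonical form, and raises transcription of genes for ribosome production, metabolism and cell growth. The Mxd proteins, Mxi1 and Mnt compete for Max and the same sites and recruit the Sin3 corepressor, so they are known as antagonists of Myc, while Mga joins Max in a Polycomb complex that keeps germline genes silent. MYC is a common driver of mammary tumours, and it is the initiating oncogene in the mouse model from which these cells derive.

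Myc, on chromosome 15 (mm10, 61985391 to 61990374, plus strand), was abundant in every library. It stood at 605.1, 612.3, 635.4 and 577.3 CPM in untreated lentivirus libraries 1 to 4 and at 589.3, 652.9, 625 and 631.8 CPM in treated lentivirus libraries 5 to 8. In untreated empty vector libraries 9 to 12 it stood at 801.5, 841.4, 218.3 and 842.7 CPM, and in treated empty vector libraries 13 to 16 at 968.7, 987.6, 992.7 and 945.9 CPM. All empty vector libraries but library 11 therefore lay above all lentivirus libraries, and library 11 lay below all of them. In treated cells Myc was 1.56-fold higher with the empty vector (log2 change 0.64, SE 0.282), with no overlap between the groups, yet edgeR's quasi-likelihood test gave an adjusted p of 0.0843, over the threshold of 0.05. The spread of that test is shared by all groups. Without library 11 the same difference, now with an SE of 0.0354, had an adjusted p of 2.41e-12. In untreated cells the log2 change was 0.15 (SE 0.281, adjusted p 0.66) with all libraries and 0.45 (SE 0.0379, adjusted p 1.89e-09) without library 11, a 1.36-fold higher level. In bulk RNA, a difference in the share of cells that express a gene cannot be told apart from a difference per cell.

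**Figure D1:**
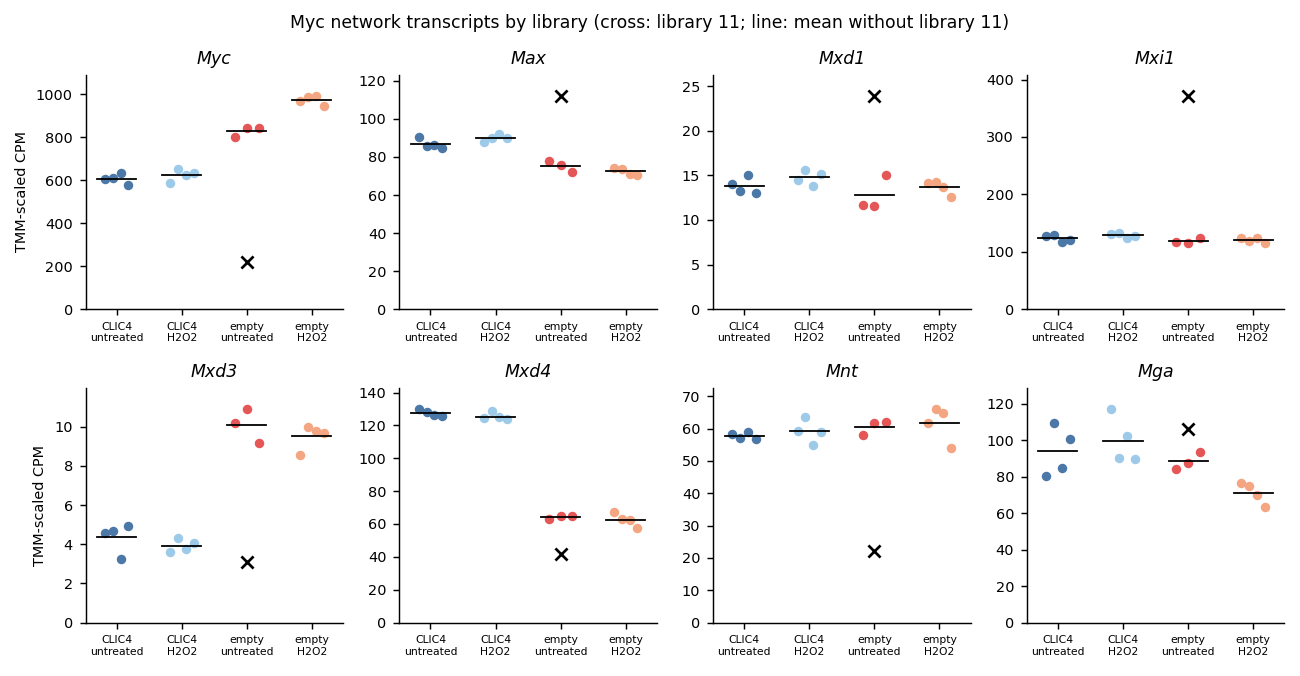
Level of each of the 8 tested members in every library, in TMM-scaled CPM on linear axes that start at 0, by group. Circles are single libraries, the cross is library 11 and lines are group means without library 11. Mxd4 separates the empty vector groups (at most 67 CPM) from the lentivirus groups (at least 123.7 CPM), and Myc does so in all libraries but library 11.

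Mycn and Mycl, the paralogs of Myc used mainly in neural and other developing tissues, were at or near 0. Neither had a count in any of the 8 lentivirus libraries or the 4 treated empty vector libraries, which allows a level of up to 0.0131 CPM in treated lentivirus cells and 0.013 CPM in treated empty vector cells (3 counts over the group, counting error only). In the untreated empty vector group Mycn had 1 count in library 9 and 6 counts in library 11, and Mycl had 2 counts in library 11. The 6 counts correspond to 0.156 CPM with an exact 95% counting interval of 0.0571 to 0.338. Nearly all reads of the Myc branch thus came from Myc itself.

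Max, the partner that the other members share, is on chromosome 12 (mm10, 76937269 to 76962201, minus strand). Its levels were 90.7, 85.7, 86.2 and 84.8 CPM in libraries 1 to 4, and 88, 90.2, 92.1 and 89.9 CPM in libraries 5 to 8. They were 78, 75.6, 112.1 and 71.9 CPM in libraries 9 to 12, and 74.3, 73.7, 70.9 and 70.6 CPM in libraries 13 to 16. The empty vector libraries were the lower ones without overlap, apart from library 11, which was the highest of all 16. That rank rests on its low TMM factor: on plain CPM library 11 had 80.7, below every lentivirus library (83.6 or more). In treated cells Max was 1.24-fold lower with the empty vector (log2 change -0.32, SE 0.107, adjusted p 0.0283). That call was lost on leaving out library 5, 6, 7, 8, 15 or 16, with adjusted p values of 0.0507 to 0.0713. Without library 11 its adjusted p was 2.61e-08 in treated cells and 2.2e-05 (log2 change -0.21, SE 0.0346) in untreated cells. With library 11 the untreated difference was -0.04 (SE 0.107, adjusted p 0.761). Max thus differed between the vectors in the direction opposite to Myc, and by less.

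Among the antagonists, Mxd4 and Mxd3 changed in opposite directions between the vectors. Mxd4, a widely expressed member of the family linked to cells that leave the cycle, is on chromosome 5 (mm10, 34173883 to 34187720, minus strand). It stood at 129.9, 128, 126.3 and 126 CPM in libraries 1 to 4 and at 124.4, 128.6, 125 and 123.7 CPM in libraries 5 to 8. It stood at 63.2, 64.7, 41.9 and 65 CPM in libraries 9 to 12 and at 67, 63, 62.5 and 57.6 CPM in libraries 13 to 16. The 8 empty vector libraries all lay far below the 8 lentivirus libraries, library 11 included. The level was 2.17-fold lower with the empty vector in untreated cells (log2 change -1.12, SE 0.11, adjusted p 1.27e-06) and 2.01-fold lower in treated cells (SE of the log2 change 0.11, adjusted p 3.82e-06). Without library 11 the untreated difference was 1.98-fold (adjusted p 1.29e-14), and that in treated cells had an adjusted p of 2.02e-15. Mxd4 kept its direction and its call in both comparisons under every alternative that was run.

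Mxd3, the family member known for its expression in proliferating cells in S phase, is on chromosome 13 (mm10, 55325168 to 55329823, minus strand) and was low throughout. It stood at 4.55, 4.69, 3.27 and 4.95 CPM in libraries 1 to 4, and at 3.6, 4.33, 3.77 and 4.04 CPM in libraries 5 to 8. It stood at 10.2, 10.9, 3.11 and 9.19 CPM in libraries 9 to 12, and at 8.58, 10, 9.79 and 9.66 CPM in libraries 13 to 16. Apart from library 11, which had the lowest level of all, every empty vector library lay above every lentivirus library. In treated cells Mxd3 was 2.42-fold higher with the empty vector (log2 change 1.27, SE 0.279, adjusted p 0.00187). In untreated cells the log2 change was 0.94 (SE 0.277, adjusted p 0.0112), and 1.22 (SE 0.106, adjusted p 3.18e-09) without library 11. The untreated call was lost in a fit of those groups alone (adjusted p 0.0893) and in all 3 fits on FPKM (0.118 to 0.188). Mxd3 overlaps Prelid1 on the opposite strand, and strandedness is not given in the sources used here, so reads in the overlap cannot be told apart. Prelid1 was at 442.8 and 443.5 CPM in untreated empty vector and lentivirus cells, with a log2 change of -0.00 (adjusted p 0.976), and at -0.06 (adjusted p 0.431) in treated cells.

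Promoter sequences of the 3 genes above whose level differed between vectors and that have an entry in the RefSeq promoter table (GRCm38.p6, 250 bases before to 50 after each start) are shown to let the E-box content be read directly. Capitals mark CACGTG, which reads the same on both strands. The Mxd4 stretch is chr5:34187711-34187960, the Mxd3 stretch chr13:55329732-55329981 and the Max stretch chr12:76962246-76962348, each on the minus strand and written 5′ to 3′ along the gene.
Mxd4: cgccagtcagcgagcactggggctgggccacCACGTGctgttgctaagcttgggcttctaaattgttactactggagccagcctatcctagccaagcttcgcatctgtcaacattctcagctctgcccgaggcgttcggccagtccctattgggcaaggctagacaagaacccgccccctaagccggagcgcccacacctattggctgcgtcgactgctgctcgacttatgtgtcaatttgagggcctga
Mxd3: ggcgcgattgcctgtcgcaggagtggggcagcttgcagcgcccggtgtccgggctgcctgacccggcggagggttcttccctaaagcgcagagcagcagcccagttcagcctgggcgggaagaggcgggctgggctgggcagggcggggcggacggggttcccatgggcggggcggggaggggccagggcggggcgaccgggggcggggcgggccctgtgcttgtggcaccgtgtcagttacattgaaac
Max: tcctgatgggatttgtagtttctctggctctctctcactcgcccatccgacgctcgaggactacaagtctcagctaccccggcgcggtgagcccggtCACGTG
The motif begins 219 bases before the start in Mxd4 and 3 bases before it in Max, where it runs across the start. It was found in no other place in these windows, and not in the Mxd3 window. Of the 11 windows of the 9 members with an entry, 3 held the motif (Mxd4, Max and Mnt), and 7.15% of all 32851 windows did. The members' windows are few, and a difference from that share was not tested. A match describes letters in a window, not binding.

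Of the antagonists, Mxi1, Mnt and Mxd1 did not pass the test in either comparison of vectors with all libraries. Mxi1, on chromosome 19 and a Sin3-recruiting partner of Max, had 117.5 to 129.4 CPM in untreated and 124.8 to 132.2 CPM in treated lentivirus cells, against 115.9 to 123.9 CPM in treated empty vector cells. Libraries 9, 10 and 12 had 117.7, 115.9 and 124.9 CPM, and library 11 had 371.6 CPM, the highest of the 16 by a wide margin. In treated cells the groups did not overlap, but the log2 change was only -0.10 (SE 0.292, adjusted p 0.827), and -0.09 (SE 0.0359, adjusted p 0.0233) without library 11. In untreated cells it was 0.56 (SE 0.293, adjusted p 0.12) with library 11 and -0.05 (adjusted p 0.254) without it, so the sign rested on that library. Leaving out library 10 instead gave 0.72 (adjusted p 0.0498).

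Mnt, the most broadly expressed antagonist and a partner of both Max and Mlx, had 55 to 63.5 CPM across the 8 lentivirus libraries and 53.9 to 66 CPM across the empty vector libraries other than library 11, which had 22.1 CPM. Its log2 change between vectors was -0.18 (SE 0.225, adjusted p 0.518) in untreated cells, or 0.07 (SE 0.0571, adjusted p 0.266) without library 11, and 0.06 (SE 0.225, adjusted p 0.865) in treated cells. Mxd1, an antagonist induced in differentiating cells, had 13 to 15.6 CPM in lentivirus cells and 11.6 to 15 CPM in empty vector cells, with 23.9 CPM in library 11. Its changes were 0.17 (SE 0.179, adjusted p 0.434) in untreated cells, or -0.11 (adjusted p 0.203) without library 11, and -0.11 (SE 0.179, adjusted p 0.655) in treated cells. The sign in untreated cells thus rested on library 11 for both genes. For both genes the groups overlapped in each comparison, also without library 11.

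Mga, a very large protein with a T-box domain beside its Max-binding domain, is on chromosome 2 (mm10, 119897228 to 119969581, plus strand). It had 80.2, 109.4, 85 and 100.6 CPM in libraries 1 to 4 and 117, 90.2, 102.2 and 89.6 CPM in libraries 5 to 8. It had 84.1, 87.7, 106.3 and 93.7 CPM in libraries 9 to 12 and 76.6, 75.1, 69.8 and 63.3 CPM in libraries 13 to 16. On TMM-scaled CPM treated empty vector cells were the low group and overlapped no other, while the other groups overlapped one another. That separation depends on the scale. On FPKM treated empty vector cells reached 9.33, above the lowest value of untreated lentivirus (8.5), treated lentivirus (9.19) and untreated empty vector cells (9.04). On plain CPM library 11 had 76.5, below library 13 at 79.6. In treated cells Mga was 1.4-fold lower with the empty vector (log2 change -0.49, SE 0.117, adjusted p 0.0036, and 0.00151 without library 11). In untreated cells the change was -0.01 (SE 0.116, adjusted p 0.929), or -0.08 (SE 0.119, adjusted p 0.548) without library 11. That Mga differed in treated but not in untreated cells is not shown by these 2 results, since the difference of the responses itself, -0.47 (SE 0.165), had an adjusted p of 0.658, or -0.40 (SE 0.162, adjusted p 0.242) without library 11.

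Counted over the network, 2 of the 8 tested members were called in untreated cells (Mxd3 higher, Mxd4 lower), against 53.3% of all tested genes in that comparison (29% higher and 24.3% lower). In treated cells 4 of 8 were called (Mxd3 higher, and Max, Mxd4 and Mga lower), against 42.1% of all tested genes (22.1% higher and 20% lower). When library 11 was left out, 4 of 8 members were called in untreated cells (Myc and Mxd3 higher, Max and Mxd4 lower) and 6 of 8 in treated cells (Myc higher and Mxi1 lower in addition), against 74.4% (37% higher and 37.3% lower) and 73.8% (36.6% higher and 37.2% lower) of 14602 genes. These shares lie near or below those of all genes, so the number of members called is not a result about the network. The median log2 change of the 8 members was 0.07 and -0.11 in untreated and treated cells, against 0.03 and -0.01 for all tested genes. Without library 11 it was -0.07 and -0.10, against -0.02 and -0.01.

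**Figure D2:**
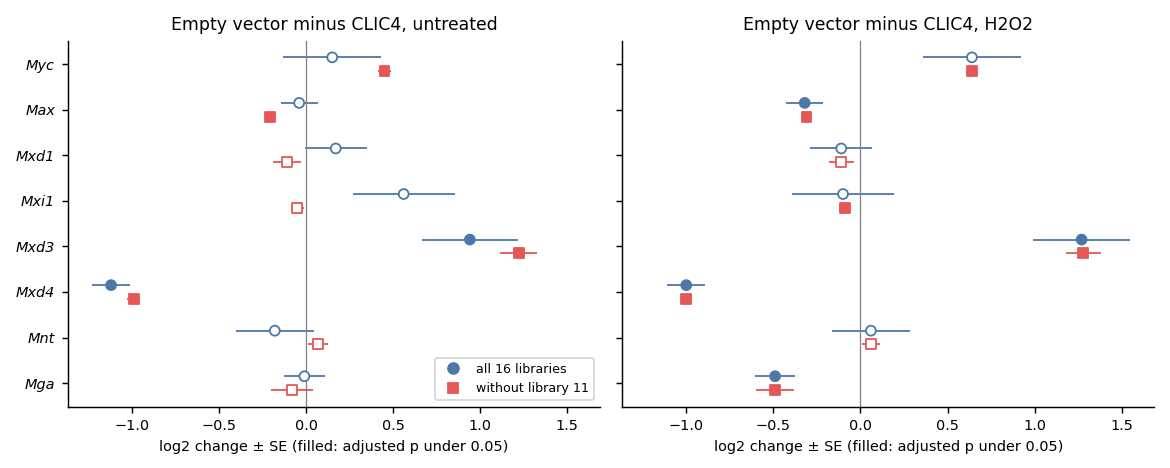
Log2 change between empty vector and CLIC4 lentivirus cells for the 8 tested members, in untreated and in treated cells, with all 16 libraries and without library 11. Points are edgeR estimates, filled where the adjusted p was under 0.05, and bars are 1 SE. Without library 11 the bars shrink for Myc (SE 0.282 and 0.0354 in treated cells) and Mxi1 (0.292 and 0.0359) but hardly for Mga (0.117 and 0.111), while the estimates in treated cells hardly move.

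Exposure to H2O2 moved few members. In lentivirus cells no member was called, and 0 of 14445 genes were (0% of all tested genes). The members' log2 changes there lay between -0.15 (Mxd3) and 0.10 (Mxd1), and no member had an unadjusted p under 0.05, as 255 of all genes did. In empty vector cells, too, no member and no gene (0%) was called with all libraries by edgeR. There 1 member, Mga, had an unadjusted p under 0.05 (0.00523, log2 change -0.38), as did 2120 genes, and DESeq2 called 58 genes but no member.

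Myc gave the exception once library 11 was left out. With all libraries its log2 change in empty vector cells was 0.53 (SE 0.282, adjusted p 0.355), 1.44-fold. The 4 treated empty vector libraries (945.9 to 992.7 CPM) all lay above untreated libraries 9, 10 and 12 (801.5 to 842.7 CPM), without library 11 a 1.17-fold higher level (log2 change 0.23, SE 0.0383, adjusted p 0.0352). It was 1 of 35 genes called among 14602, or 0.24% of those tested (0.123% higher and 0.116% lower). The call was narrow: when 1 further library was left out in turn, a check added after these data were seen, Myc stayed between 0.21 and 0.25 but lost its call without library 7, 9, 10, 13, 15 or 16, with adjusted p values of 0.0522 to 0.209. In lentivirus cells the same change was 0.04 (SE 0.0353, adjusted p 0.653 without library 11). The difference of the responses was 0.19 (SE 0.052, adjusted p 0.0974) without library 11 and 0.49 (SE 0.398, adjusted p 0.667) with it, so a response particular to empty vector cells did not pass the test. None of the 8 members was called for the difference of responses with all libraries (0% of all genes, 1 member and 859 genes at an unadjusted p under 0.05) or without library 11 (0.192% of all genes, 0.0685% higher and 0.123% lower).

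Library 11 changed the order of the network. Relative to the mean of libraries 9, 10 and 12, Myc was 3.8-fold lower, Mxd3 3.25-fold lower, Mnt 2.74-fold lower and Mxd4 1.54-fold lower. Mxi1 was 3.11-fold higher, Mxd1 1.87-fold higher and Max 1.49-fold higher. The scaling matters here because of the low TMM factor: on plain CPM Myc was 5.45-fold lower, Mxi1 2.16-fold, Mxd1 1.3-fold and Max 1.04-fold higher, and Mga went from 1.2-fold higher to 1.2-fold lower. Such gaps were common in library 11, where 21.4% of 10481 genes with a mean of at least 4 CPM were at least 2-fold lower and 15.6% at least 2-fold higher. A fall as large as that of Myc was seen in 4.15% of genes and a rise as large as that of Mxi1 in 6.16%. Clic4 itself stood at 138 CPM there, between the vectors, and Epcam held all 500 counts of its group in that library. The part of these differences in the members' values was not tested.

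**Figure D3:**
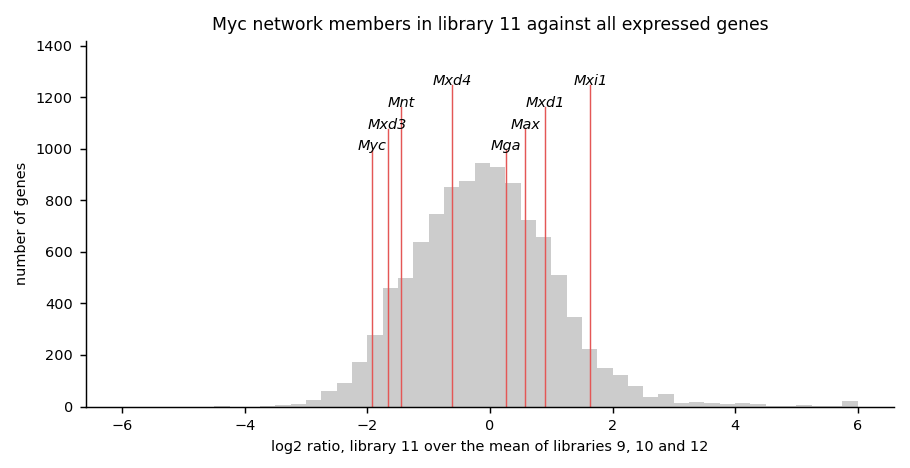
Distribution over 10481 genes of the log2 ratio of library 11 to the mean of libraries 9, 10 and 12, on TMM-scaled CPM, with the members marked. The end bins hold all ratios beyond the axis. Myc (-1.92), Mxd3 (-1.67) and Mnt (-1.45) lie in the lower tail and Mxi1 (1.64) in the upper one.

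Levels of different genes were set side by side on FPKM, which the authors scaled to gene length. Myc had 305.22 to 343.26 FPKM in untreated and 325.12 to 355.01 FPKM in treated lentivirus cells, 430.5 to 456.06 in untreated empty vector cells without library 11, 83.51 in library 11, and 520.67 to 538.31 in treated empty vector cells. By FPKM it ranked between 199 and 305 of 25372 genes in the 15 other libraries and 1155 in library 11. Max and Mxi1 came next, at 44.65 to 61.9 FPKM and at 52.32 to 60.05 FPKM outside library 11, with overlapping ranges. Mxd4 followed in lentivirus cells at 38.92 to 42.9 FPKM, and with the empty vector at 19.02 to 21.84 FPKM outside library 11. Mnt stood at 12.72 to 16 FPKM outside library 11 and Mga at 7.83 to 11.94 FPKM in all libraries. Mxd1 stood at 2.7 to 4.15 FPKM, which overlapped Mxd3 in lentivirus cells (2.94 to 4.35 FPKM) but not in empty vector cells outside library 11 (7.84 to 9.99 FPKM).

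The balance of the network on this scale shifted with the vector. The ratio of Myc to Max FPKM was 5.86 ± 0.166 and 5.72 ± 0.271 (SD, n = 4 each) in untreated and treated lentivirus cells. It was 8.79 ± 0.653 (n = 3, without library 11) and 10.6 ± 0.803 (n = 4) in empty vector cells. Myc over the summed FPKM of the 6 other Max partners (Mxd1, Mxd3, Mxd4, Mxi1, Mnt and Mga) was 2.59 ± 0.161 and 2.64 ± 0.127 in lentivirus cells, and 3.95 ± 0.0781 (without library 11) and 4.79 ± 0.153 in empty vector cells. In library 11 these ratios were 1.69 and 0.531, below every other library. Mxd4 made up 32.2 ± 0.762% and 30.8 ± 0.457% of that sum in lentivirus cells and 19 ± 0.306% (without library 11) and 18.6 ± 0.826% in empty vector cells. Mxd3 made up 3.09 ± 0.47% of it in untreated lentivirus and 8.27 ± 0.925% in untreated empty vector cells (without library 11). Mxi1, the most abundant of these partners, had a higher share with the empty vector, though its own level was not higher. Its share was 43.8 ± 0.58% and 48.3 ± 0.987% (without library 11) in untreated cells, and 44.9 ± 0.479% and 49.7 ± 1.21% in treated cells. Mxi1 itself averaged 55.3 and 54.5 FPKM (without library 11) in untreated and 58.3 and 55 FPKM in treated cells. The sum averaged 126.2 and 112.7 FPKM (without library 11) in untreated and 129.9 and 110.8 FPKM in treated cells. In library 11 Mxd4 made up 6.82%, Mxd3 1.23% and Mxi1 81.3% of the sum. With that library the untreated empty vector means were 15.9 ± 6.08%, 6.51 ± 3.6% and 56.6 ± 16.5%. These ratios are descriptions built from the levels above and carry no test of their own.

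**Figure D4:**
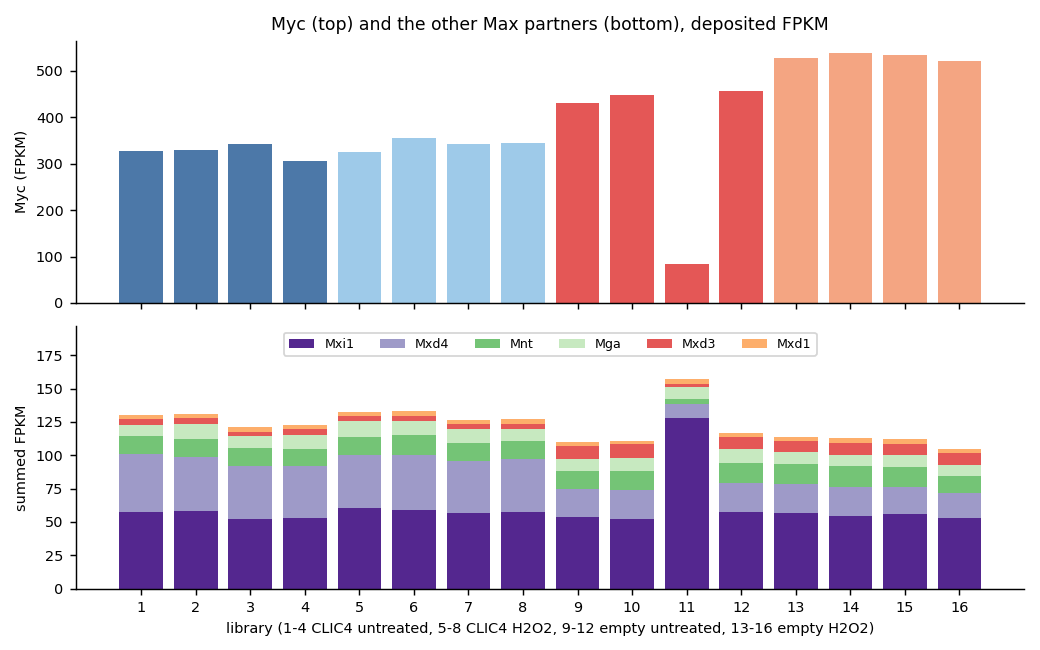
FPKM of Myc in each of the 16 libraries (top) and the summed FPKM of the 6 other Max partners, stacked by gene (bottom), on linear axes that start at 0, with colours in the top panel for the groups. The Mxd4 layer is thinner in all empty vector libraries, and in library 11 Mxi1 (127.88 FPKM) exceeds Myc (83.51 FPKM).

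Genes around the network were followed in lists of its cofactors, regulators and targets, given here for treated cells with all libraries, where 22.1% of all tested genes were called higher and 20% lower (36.6% and 37.2% without library 11). Among 16 genes that govern Myc protein stability, 7 were higher and 2 lower (10 and 3 without library 11), with a median log2 change of 0.20 against -0.01 for all genes. Aurka, a mitotic kinase that protects N-Myc from degradation, was 2.79-fold higher with the empty vector (49 against 17.6 CPM, adjusted p 9.69e-09). Cip2a, an inhibitor of the phosphatase that destabilizes Myc, was 2.34-fold higher (adjusted p 1.1e-05), and Skp2, a ubiquitin ligase subunit that acts on Myc, was 1.87-fold higher (adjusted p 0.000585). Of 14 genes of the Sin3 corepressor, through which the Mxd proteins act, 3 were higher and 3 lower (7 and 5 without library 11), with a median of 0.09. Of 15 Myc coactivator genes 2 were higher and 2 lower (4 and 4 without library 11). Among them were Actl6a (1.72-fold higher, adjusted p 0.000319) and Bptf (1.47-fold lower, adjusted p 4.1e-05), both subunits of chromatin remodelling complexes. In untreated cells 7 coactivator genes were higher and 1 lower (7 and 2 without library 11). Over all tested genes 29% were higher and 24.3% lower there (37% and 37.3% without library 11).

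Known Myc targets did not move as a block. Of 19 metabolic targets 9 were higher and 2 lower (13 and 3 without library 11), with a median of 0.35. Shmt2, which makes one-carbon units in mitochondria, was 2.26-fold higher (147.5 against 65.3 CPM, adjusted p 2.99e-10). The amino acid transporter Slc7a5 was 1.71-fold higher (adjusted p 5.6e-07) and the lactate transporter Slc16a1 1.55-fold higher (adjusted p 4.74e-06). Of 15 growth and cell cycle targets 7 were higher and 0 lower, with a median of 0.15, including the replication helicase gene Mcm4 (2.53-fold, adjusted p 1.09e-07) and E2f1 (2.04-fold, adjusted p 3.35e-05). Without library 11 the same list had 8 higher and 5 lower, so its lack of lower calls rested on that library. Of 28 nucleolar and ribosome production targets 3 were higher and 1 lower, with a median of 0.05, and without library 11 these were 12 and 5. In untreated cells 11 of them were higher and 2 lower, with a median of 0.08, where 29% of all tested genes were higher and 24.3% lower. Without library 11 these were 15 and 6, against 37% and 37.3%. In treated cells Nolc1, a nucleolar phosphoprotein, was 1.47-fold higher (adjusted p 5.03e-05). Npm1, the abundant nucleolar chaperone, was 1.38-fold lower there (2562.8 against 3539.5 CPM, adjusted p 0.00174). The fits on FPKM did not make the Npm1 call (adjusted p 0.0909 to 0.146).

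Of 13 genes that Myc is known to repress, 3 were higher and 2 lower (5 and 5 without library 11), with a median of 0.15. In untreated cells 8 were higher and 3 lower (8 and 5 without library 11), with a median of 0.43. Over all tested genes 29% were higher and 24.3% lower there (37% and 37.3% without library 11). In treated cells the growth arrest gene Gas1 was 33-fold lower with the empty vector (0.374 against 12.4 CPM, adjusted p 7.7e-10). The cell cycle inhibitor Cdkn1b was 1.47-fold lower (adjusted p 0.00286). Cdkn1a, another cell cycle inhibitor and p53 target, was 1.92-fold higher (184.7 against 96.3 CPM, adjusted p 0.00165). Of 11 genes of the Polycomb complex that contains Mga, Mga included, 2 were higher and 2 lower (5 and 4 without library 11). Only 3 of 15 measured germline genes silenced by that complex passed the filter on low counts. Tdrd9, a germ cell helicase, was higher with the empty vector (2.74 against 0.0473 CPM, adjusted p 1.77e-08). It was also higher in untreated cells (2.26 against 0.061 CPM, adjusted p 4.03e-08), where the change of Mga was -0.01. Sycp1, of the synaptonemal complex, averaged 0.494 and 0.221 CPM in treated cells (adjusted p 0.00179). The Sycp1 call was lost with limma on unfiltered FPKM (adjusted p 0.218), and edgeR did not make it in untreated cells (adjusted p 0.119). Zcwpw1, a reader of meiotic chromatin marks, was lower with the empty vector in treated cells (6.77 against 11.8 CPM, adjusted p 5.67e-05). In untreated cells it was lower too (5.6 against 12 CPM, adjusted p 2.82e-06). A relation of these genes to the level of Mga was not tested. Pvt1, the noncoding RNA gene beside Myc, was 1.45-fold higher (adjusted p 0.03), a call lost without library 6, 7, 8, 13, 15 or 16 (adjusted p 0.0521 to 0.0658).

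**Figure D5:**
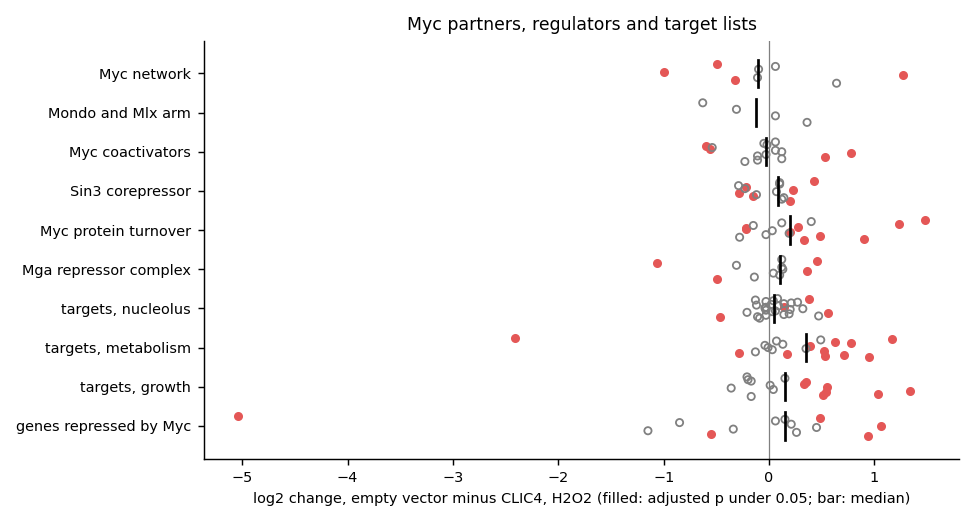
Log2 change between empty vector and CLIC4 lentivirus cells under H2O2, all 16 libraries, for the measured genes of each list around the Myc network. Each point is a tested gene, filled where its adjusted p was under 0.05, and the bar is the list's median. The median of the metabolic targets lies at 0.35 and that of the nucleolar targets at 0.05, and the gene farthest to the left is Gas1.

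Markers of other cell types were followed in treated cells too, and genes of 1 list did not all go the same way. Of the endothelial markers, Cdh5 averaged 83.1 CPM with the lentivirus and 3.56 CPM with the empty vector, while Pecam1 averaged 0.432 and 0.427 CPM, and Kdr and Tek at most 0.0733 CPM. Of the fibroblast markers, Pdgfra was the higher with the empty vector (15.3 against 4.81 CPM), and Col1a1 (3.16 against 9.31 CPM) and Dcn (0.0562 against 2.06 CPM) the lower. The summed level of the 5 fibroblast markers ran from 15.3 to 18.1 CPM in lentivirus and from 16.9 to 20.1 CPM in empty vector libraries, ranges that overlap. The summed level of the 5 luminal markers ran from 580.2 to 609.1 CPM and from 920.9 to 1028.8 CPM, with Krt8, Krt18 and Krt19 all called higher with the empty vector. The Krt19 call was lost on leaving out any 1 of the 8 treated libraries (adjusted p 0.0513 to 0.0727). The Krt8 call was lost in each limma fit on FPKM (adjusted p 0.0591 to 0.0993). The summed level of the immune markers, 4 of 6 in the table, ran from 80.9 to 92.6 CPM and from 228.3 to 258 CPM, nearly all of it Cd68. Itgam was also called higher with the empty vector (4.63 against 0.0173 CPM, adjusted p 1.35e-06, edgeR). The defining leukocyte gene Ptprc had no count in treated empty vector cells. The summed level of the 4 basal markers ran from 4.44 to 4.88 CPM and from 0.177 to 0.397 CPM. Nearly all of the lentivirus sum was Trp63 (4.65 CPM, against 0.166 CPM with the empty vector). Acta2 was the higher with the empty vector (0.112 against 0.00849 CPM), Krt5 averaged at most 0.00411 CPM and Krt14 was at 0 in both groups. The adipocyte markers summed to at most 0.0181 CPM. The part of these differences in the levels of the network was not tested.

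The 5 genes whose log2 CPM followed Myc most closely over the 15 libraries other than library 11, among 10312 genes whose average log2 CPM reached 2, were Rab44 (r = 0.9890), Mier2 (0.9886), A230050P20Rik (0.9868), Usp35 (0.9826) and Slc9a5 (0.9810). Over all 16 libraries r was 0.994 for Rab44 but -0.335 for Mier2, 0.282 for A230050P20Rik, 0.0938 for Usp35 and 0.313 for Slc9a5, so of these 5 only Rab44 followed Myc into library 11. These libraries share the division by vector, which any gene that differs between vectors also follows. Among the other members, r with Myc over the 15 libraries was 0.9 for Mxd3, -0.951 for Mxd4 and -0.928 for Max, and over 16 libraries it was 0.765, -0.0535 and -0.929. For Mxd1, Mxi1, Mnt and Mga r was -0.267, -0.505, 0.476 and -0.759 over the 15 libraries. Over 16 libraries it was -0.784, -0.864, 0.869 and -0.648 for these genes.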

How the data were processed

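RNA was extracted with a Qiagen RNeasy kit, and libraries followed Illumina protocols, per the labels' protocols. Reads were handled with cutadapt, STAR and RSEM on mm10, per the submitters' processing notes. Tool versions, annotation and strandedness are not given in any source used here. Whole-number counts for 25745 genes were deposited by the authors. FPKM values, scaled by the authors to length and depth, were deposited for 25372 genes. Since RSEM estimates counts, rounding by the authors is possible.

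The 16 libraries, of 47.1 M to 61.9 M counts, were grouped by sample title. No pair of libraries agreed within sampling noise (lowest chi-square per degree of freedom 4.98). Counts were tested with edgeR 4.0.16 (R 4.3.3) by the robust quasi-likelihood F test, in 1 fit of all libraries with a coefficient per group, TMM scaling and filterByExpr, which left 14445 genes. Benjamini-Hochberg adjustment ran over all of them, and genes with an adjusted p under 0.05 were called. Standard errors divide the log2 change by the root of F. The 5 comparisons were between vectors in untreated and treated cells, between treatments with each vector, and the difference of the responses. The procedure was tested on simulated data with means taken without library 11 and a spread near that of the fit without it. The biological coefficient of variation was 5.28% in that fit and 23.1% with all libraries. The simulation therefore does not cover the spread of the fit of all libraries. The members, lists and rules were chosen with earlier results of these data known.

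Alternatives were RLE size factors, no filter, 10 CPM in 4 libraries, the compared groups alone, DESeq2 1.42.0, limma 3.58.1 on FPKM with pseudocounts of 1 or 0.1 (genes reaching 0.5 FPKM in 4 libraries) and with 1 and no filter, limma voom with library weights, and leaving out each library. Named genes are all members, Clic4, up to 3 called genes of each list by smallest adjusted p in treated cells, and the 5 genes most correlated with Myc. Of these the text gives part. Prelid1 and Epcam, and the markers at or near 0, lie outside the rule. Positions come from GENCODE vM21 (mm10), promoters from RefSeq. Intervals and floors cover counting error only.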

Additional observations from a re-analysis of the deposited data

Results flagged for a closer look

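In the untreated empty vector group, 7 members had 1 library separated from the other 3 by a gap that, as a share of the group's range, exceeded Dixon's 95% critical value, and in each case it was library 11. Chance gives about 1 such group in 20, and 34 groups were examined, none of which was marked for any other library. The 7 marks are of the same library, so they are not independent and cannot be set against that rate as separate draws. For Mycl, which had counts in library 11 alone, the gap equals the range by construction. Library 11 was the lowest for Myc at 218.3 CPM, for Mxd4 at 41.9 CPM and for Mnt at 22.1 CPM. It was the highest for Max at 112.1 CPM and for Mxi1 at 371.6 CPM. The Max value stands apart only with TMM scaling. On plain CPM library 11 had 80.7, against 80.8, 78 and 74.5 in libraries 9, 10 and 12. It was also the highest for Mycn at 0.156 CPM and for Mycl at 0.0518 CPM, which rest on 6 counts and 2 counts. The same library had the lowest correlation with its group and the highest share of structural RNA, and their part in these values was not tested.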

How the results depend on the processing

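No paired analysis was possible because no library number is shared between groups. The number of members called between vectors in untreated cells, 2 as reported, was 1 in a fit of the compared groups alone and 1 in each of the 3 limma fits on FPKM, 5 with voom library weights, and 2 to 4 on leaving out each library. All genes called there, 7700, became 5107 with the filter of 10 CPM and 4426 in the compared groups alone. They became 10846 with voom weights, and 6734 to 10858 on leaving out each library. In treated cells the 6079 genes became 3973 with the filter of 10 CPM, 10491 in the compared groups alone, 10916 with voom weights, and 5349 to 10779 on leaving out each library. The share of higher calls there rose from 52.5% to 58% and 59.6% on log2(FPKM + 1) and log2(FPKM + 0.1). For the H2O2 response of empty vector cells, members called went from 0 to 1 with voom weights (Myc), and 0 to 1 on leaving out each library, while all genes called went from 0 to 58 with DESeq2, 98 with voom weights, and 0 to 35 on leaving out each library. For lentivirus cells all genes called went from 0 to 121 in the compared groups alone, 1 with DESeq2, 2 on unfiltered FPKM and 24 with voom weights. For the difference of responses they went from 0 to 17 with DESeq2, 21 with voom weights, and 0 to 28 on leaving out each library.

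Myc was called between vectors in treated cells in 4 of 25 alternatives: without library 11, in the compared groups alone, with DESeq2 (adjusted p 0.0473) and with voom weights. Its log2 change there stayed between 0.61 and 0.66, while in untreated cells, where it was called without library 11 and with voom weights, it ran from -0.16 (on log2(FPKM + 0.1)) to 0.45 (without library 11). Mxd1 in untreated cells turned from 0.17 to -0.16 with voom weights (adjusted p 0.0447). Sap18, of the Sin3 complex, was lower by -0.22 and -0.29 in untreated and treated cells but higher on FPKM, by 0.24, 0.25 and 0.24 and by 0.19, 0.20 and 0.19. The Mga call in treated cells was lost on unfiltered FPKM (adjusted p 0.054). Of 824 alternative values of members uncalled in both fits, 29 changed sign. The median of all genes in the H2O2 response of empty vector cells went from 0.02 to 0.11 and 0.14 on filtered FPKM. The causes were not tested.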

Other observations

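Other factors that bind E-boxes with a helix-loop-helix leucine zipper or a related domain were set beside the network. Of 10 such genes tested in treated cells, 1 was called higher with the empty vector and 3 lower (2 and 7 without library 11), with a median log2 change of -0.23 against -0.01 for all genes. Over all tested genes, 22.1% were called higher and 20% lower (36.6% and 37.2% without library 11). Mitf, best known from pigment cells and as a relative of the lysosomal regulator Tfeb, was 1.99-fold higher with the empty vector under H2O2 (62.4 against 31.4 CPM, adjusted p 3.03e-07, edgeR), and the groups did not overlap. Bhlhe40, a repressor that responds to hypoxia and the circadian clock, was 1.42-fold lower (101.8 against 145 CPM, adjusted p 0.00292). Usf2 was 1.15-fold lower (adjusted p 0.00773), a call that was not made without a filter (adjusted p 0.105) or on FPKM. Of the Mondo and Mlx branch, which pairs with Mlx in place of Max and responds to glucose, 0 of 4 tested genes were called in treated cells with all libraries, while 1 was higher and 2 were lower without library 11. The shares called over all tested genes in treated cells were 42.1% with all libraries and 73.8% without library 11. In untreated cells 2 of these 4 genes were higher and 1 lower with all libraries, and 2 and 2 without library 11. The shares over all tested genes there were 53.3% and 74.4%.

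Rybp, a subunit of the Polycomb complex that contains Mga, was lower with the empty vector in treated cells (56.9 against 118.8 CPM, log2 change -1.06, adjusted p 0.0364). That call was lost on leaving out any 1 library of the compared groups (adjusted p 0.0604 to 0.0838), and without library 11 its adjusted p was 2.92e-15. In untreated cells its change was -0.10 with library 11, where it reached 251.5 CPM, and -0.97 without it.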
